A study of Homo sapiens with 6 samples.

Results

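Sam68 silencing was compared directly with XRN2 silencing, with all 4 knockdown libraries of the series of 6 and without its controls. The comparison covered every listed item, 1944 genes with an expression value and 4903 polyadenylation sites of 3118 genes, with 506 genes in both tables. The cells were LNCaP, an androgen-sensitive human prostate cancer line. The siSAM68 group had 2 libraries of cells given small interfering RNA against Sam68, a protein encoded by KHDRBS1. The siXRN2 group had 2 libraries of cells given small interfering RNA against XRN2. The siCTRL group, also of 2 libraries, received a control small interfering RNA and is given here for placement of values. It entered no test other than the alternative fits with all 6 libraries. Per the labels, the small interfering RNA was at 50 nM, transfection was repeated, and silencing lasted 48 hours. Libraries were made by 3'READS, a method that reads the end of polyadenylated transcripts next to the cleavage site. The 2 libraries of a group are described as biological replicates, and whether they came from separate cultures is not stated, so p-values measure the spread between these libraries only. In bulk RNA, fewer cells of a kind and less RNA per cell cannot be told apart.

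Sam68 is an RNA-binding protein of the STAR family that acts in alternative splicing and in the choice of polyadenylation sites. XRN2 is the nuclear exonuclease that degrades the RNA left on the polymerase after cleavage at the polyadenylation site, a step of transcription termination. A difference between both knockdowns shows where the RNA populations depart from each other, and leaves out what both share relative to control cells. XRN2 is not among the listed genes, so the level of its own RNA was not analysed here.

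The siSAM68 libraries held 674072 and 788203 reads in listed genes, and the siXRN2 libraries 597911 and 1599559. Expression is given in RPM, a read count scaled for library depth, and rescaled so that the listed genes of each library sum to the same total. Along the main axis of variation between the 4 libraries (63.1% of the variance) siSAM68 lay at -10.5 and -10.6 and siXRN2 at 6.45 and 14.6. The next axis, with 23.8%, lay between the siXRN2 libraries, at 10.2 and -6.89, while the siSAM68 libraries were at 1.79 and -5.09. The median absolute log2 difference between replicates was 0.18 in siSAM68 and 0.28 in siXRN2. Both tables are selected lists, as 67.3% of genes and 81.1% of sites pass a size of 1.3 in the authors' deposited score against siCTRL, so shares hold for these lists only. Of 16 luminal prostate markers, 12 were listed, among them KLK3, KLK2, FOLH1 and HOXB13. Of 17 stromal, endothelial, immune and basal markers only FN1 was listed, at 289 and 229 RPM in siSAM68 and 282 and 222 RPM in siXRN2, and none of 4 neuroendocrine markers was listed.

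KHDRBS1 checked the labels of the siSAM68 libraries. Its level was 53.6 and 27.3 RPM in siSAM68 and 899 and 569.6 RPM in siXRN2, beside 612 and 755 RPM in siCTRL. Both siSAM68 libraries were far below every other library. KHDRBS1 does not tell siXRN2 from siCTRL, and XRN2 is not listed, so the siXRN2 labels were not checked by expression. The siXRN2 mean was 18.2-fold the siSAM68 mean (log2 -4.19, SE 0.31, limma adjusted p = 7.21e-05).

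Across 1934 tested genes, 3 passed a limma adjusted p of 0.05, which is 0.155%, with 1 higher in siSAM68 (0.0517%) and 2 higher in siXRN2 (0.103%). They were EDEM1 on the one side and KHDRBS1 and LOC644961 on the other. edgeR on recovered whole reads called 45 genes (2.33%), 22 higher in siSAM68 (1.14%) and 23 higher in siXRN2 (1.19%). EDEM1 encodes a lectin-like protein that directs misfolded glycoproteins out of the endoplasmic reticulum for degradation. It stood at 87.0 and 84.9 RPM in siSAM68 against 35.4 and 25.4 RPM in siXRN2, with siCTRL at 51.0 and 79.0 RPM. The siSAM68 libraries were higher than all others and the siXRN2 libraries lower than all others (log2 1.49, SE 0.24, limma adjusted p = 0.0461). LOC644961, a locus without a name in the files, was at 50.3 and 41.4 RPM in siSAM68, 115.6 and 138 RPM in siXRN2 and 279 and 163 RPM in siCTRL. Both siSAM68 libraries were below all others (log2 -1.45, SE 0.22, limma adjusted p = 0.0369). Without siXRN2 replicate 2 the limma adjusted p was 0.073 for EDEM1 and 0.0732 for LOC644961. With the GC trend of each library removed, it was 0.134 for EDEM1. Both calls were also lost with deposited RPM that was not rescaled (adjusted p = 1.0), with no filter on low values and with no trend in limma, while KHDRBS1 passed in each of these fits.

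Many more genes separated the groups without passing the adjusted threshold. Groups did not overlap in 1158 genes (59.9%), with both siSAM68 libraries higher in 634 (32.8%) and both siXRN2 libraries higher in 524 (27.1%). At an unadjusted limma p of 0.05 the counts were 283 genes higher in siSAM68 (14.6%) and 222 higher in siXRN2 (11.5%), 505 in all (26.1%), and these shares are the background for each list's counts at that threshold. Linear group means differed by at least 2-fold in 85 genes (4.4%), 45 higher in siSAM68 (2.33%) and 40 higher in siXRN2 (2.07%). Calls depended on single libraries: 443 genes passed the adjusted threshold without siXRN2 replicate 1, 1 without siXRN2 replicate 2, 17 without siSAM68 replicate 1 and 16 without siSAM68 replicate 2. A group left with 1 library was taken to vary like the other group. In the same order, an unadjusted p of 0.05 was passed by 743, 483, 255 and 232 genes, so the counts for the gene lists also move with single libraries.

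The siCTRL libraries placed these genes differently in each direction. Of the 283 genes higher in siSAM68 at an unadjusted p of 0.05, the siCTRL mean lay below both knockdowns in 55.1%, between them in 26.5% and above both in 18.4%. Of the 222 genes higher in siXRN2, it lay below both in 13.1%, between them in 23.9% and above both in 63.1%. Over all tested genes the shares were 46.3%, 14.6% and 39.1%.

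EDEM1 was among the 12 genes with the largest differences toward siSAM68, and the other 11 had limma adjusted p-values from 0.0502 to 0.101, and they are given as values only. FAS, a death receptor of the tumour necrosis factor receptor family, stood at 23.8 and 26.8 RPM in siSAM68 against 6.28 and 7.59 RPM in siXRN2, with siCTRL at 5.76 and 10.9 RPM. The siXRN2 libraries were at control level and the siSAM68 libraries above it (log2 1.73, SE 0.29, limma adjusted p = 0.0502, edgeR adjusted p = 0.0402). FOS, an immediate early transcription factor, was at 38.7 and 25.5 RPM in siSAM68 and 15.5 and 6.07 RPM in siXRN2. F2RL1, a protease-activated receptor, was at 27.2 and 21.6 RPM against 8.86 and 9.39 RPM, and both siCTRL libraries were lower than either knockdown. TBK1, a kinase of innate immune signalling, was at 124 and 134 RPM in siSAM68 and 64.2 and 52.4 RPM in siXRN2, with siCTRL at 25.4 and 58.2 RPM. EIF2AK3, the endoplasmic reticulum stress kinase PERK, had a log2 difference of 1.36 and is described with its pathway.

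SLC25A24 and PIK3C2A showed another order of the 3 groups. SLC25A24, a mitochondrial carrier of adenine nucleotides, was at 32.0 and 38.8 RPM in siSAM68 and 28.2 and 34.1 RPM in siCTRL, with both siXRN2 libraries lower at 14.03 and 12.1 RPM. PIK3C2A, a lipid kinase of endocytosis, was at 149 and 145 RPM in siSAM68, 102.7 and 41.8 RPM in siXRN2 and 130.3 and 185 RPM in siCTRL. RAB3GAP2, a regulator of Rab GTPases, was at 35.0 and 43.6 RPM in siSAM68 against 15.5 and 16.4 RPM in siXRN2. TBC1D4, a Rab GTPase-activating protein, differed by log2 1.13. C14orf149 differed by 1.39.

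In the opposite direction, KHDRBS1 was followed by ZNFX1, a helicase-like zinc finger protein of antiviral defence. It was at 11.2 and 9.60 RPM in siSAM68, 35.4 and 31.1 RPM in siXRN2 and 26.8 and 28.7 RPM in siCTRL (log2 -1.59, SE 0.27, limma adjusted p = 0.0502). VPS18, a subunit of the endosomal tethering complexes, was at 9.28 and 10.5 RPM in siSAM68 and 19.2 and 37.3 RPM in siXRN2. NPTXR, the neuronal pentraxin receptor, was at 8.64 and 15.3 RPM against 24.4 and 34.5 RPM. In these genes the siSAM68 libraries were lower than both siCTRL libraries. TMEM41A, a membrane protein, was at 29.4 and 30.3 RPM in siSAM68, 65.0 and 77.8 RPM in siXRN2 and 87.9 and 79.8 RPM in siCTRL.

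RECQL5, a DNA helicase, differed by log2 -1.18, and so did RPUSD4, a pseudouridine synthase of mitochondrial RNA. KRT19, an epithelial keratin, was at 60.2 and 33.8 RPM in siSAM68 and 147 and 70.3 RPM in siXRN2, with wide replicate spread in both groups. SMCR7L, BTBD1 and ST7-OT3 differed by -1.15, -1.22 and -1.17, the last being a transcript that overlaps another gene, so its reads may be shared. IFI6, an interferon-induced mitochondrial protein, was at 22.7 and 16.3 RPM in siSAM68 and 40.6 and 45.1 RPM in siXRN2. Limma adjusted p-values of these genes other than KHDRBS1 lay between 0.0502 and 0.0954. Among all 12 siXRN2-side genes, the siCTRL mean lay between the knockdowns in 8, and among the 12 on the siSAM68 side in 6.

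**Figure D1:**
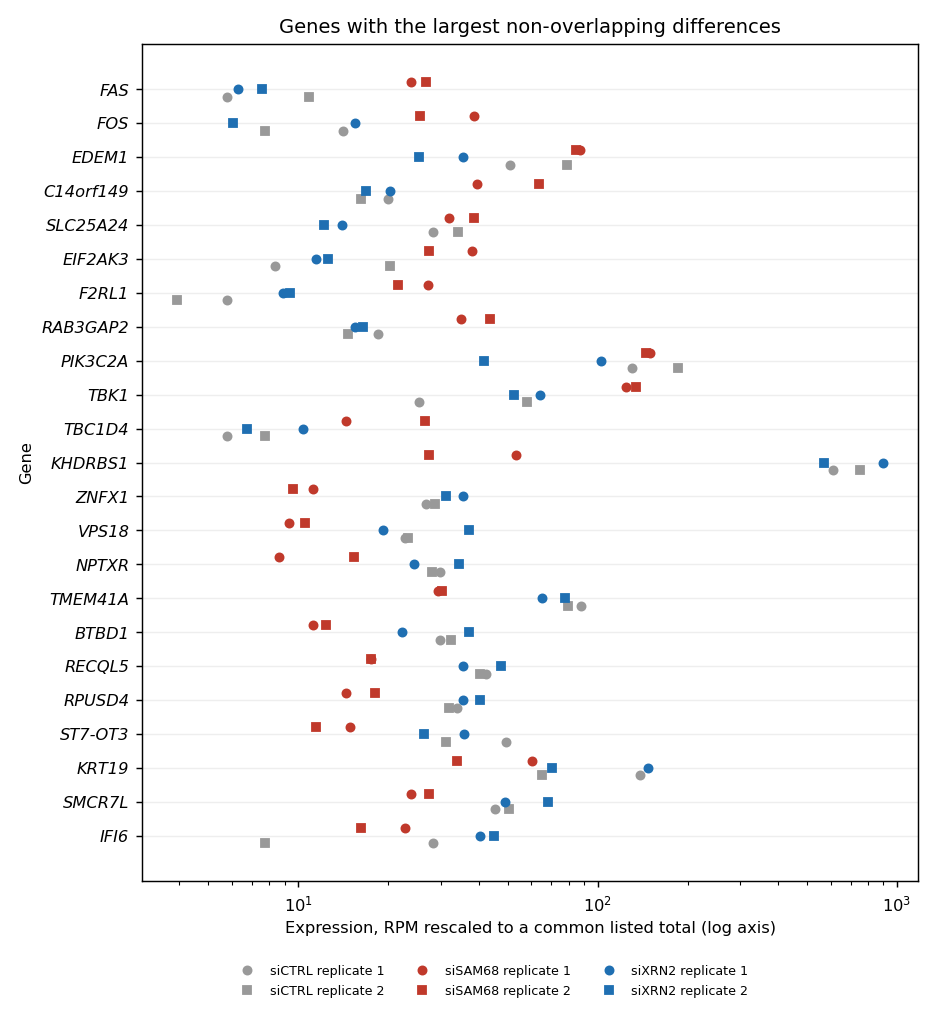
Expression of 11 genes with the largest non-overlapping differences toward siSAM68 and 12 toward siXRN2, in RPM rescaled to a common listed total on a log axis, with 1 point per library of siSAM68, siXRN2 and siCTRL. KHDRBS1 separates the groups most, at 53.6 and 27.3 RPM in siSAM68 against 899 and 569.6 RPM in siXRN2. The siCTRL mean lies between the knockdowns in 6 genes of the siSAM68 side and 8 of the siXRN2 side.

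The endoplasmic reticulum stress list stood apart in its counts. Unfolded proteins in that compartment activate the kinase PERK, the nuclease IRE1, which splices XBP1 RNA, and the transcription factor ATF6, and these raise chaperones, degradation factors and, through ATF4, genes of amino acid synthesis. Of 36 genes on the list, 15 were listed and tested. EDEM1 alone passed the adjusted threshold in limma, and edgeR called 3, EDEM1, EIF2AK3 and PDIA4, against 2.33% of all tested genes. Both siSAM68 libraries were higher in 11 members and both siXRN2 libraries higher in 1, against 32.8% and 27.1% of all tested genes. The groups overlapped in 3 members. At an unadjusted limma p of 0.05, 9 were higher in siSAM68 and 1 in siXRN2, against 14.6% and 11.5% of all tested genes. The median log2 difference of the list was 0.66, against 0.04 over all genes.

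Chaperones and protein disulfide isomerases of the compartment gave these values. HSP90B1, the chaperone GRP94, was at 2951 and 2983 RPM in siSAM68, 2003 and 1757 RPM in siXRN2 and 1561 and 2254 RPM in siCTRL (log2 0.66, SE 0.18, limma adjusted p = 0.0789). PDIA4, a disulfide isomerase, was at 974 and 897 RPM in siSAM68, 579 and 379.6 RPM in siXRN2 and 411 and 715 RPM in siCTRL (log2 0.99, limma adjusted p = 0.0588). PDIA6, another disulfide isomerase, was at 780.4 and 702 RPM against 526 and 504 RPM. DNAJB9, a co-chaperone, was at 45.3 and 41.4 RPM in siSAM68 and 26.2 and 14.1 RPM in siXRN2. For these 4 genes the groups did not overlap, and none passed the adjusted threshold in limma.

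Degradation factors, stress sensors and transcription factors followed. HERPUD1, a membrane protein of the degradation complex, was at 246 and 190.4 RPM in siSAM68 and 153 and 101 RPM in siXRN2. SYVN1, the ubiquitin ligase of that complex, was at 77.1 and 68.7 RPM against 59.8 and 49.8 RPM, and both siCTRL libraries were far lower, at 15.6 and 20.2 RPM. EIF2AK3, which encodes PERK, was at 38.0 and 27.3 RPM in siSAM68 and 11.4 and 12.6 RPM in siXRN2 (log2 1.36, limma adjusted p = 0.0588). XBP1, the transcription factor of the IRE1 branch, was at 435 and 433 RPM in siSAM68 and 348 and 407 RPM in siXRN2 (log2 0.21, limma adjusted p = 0.464). ATF3, a stress-induced transcription factor, was at 312 and 300.1 RPM against 209 and 137 RPM. PPP1R15B, a subunit of the phosphatase that reverses the PERK signal, differed by log2 0.71.

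The other 4 members, grouped here after their values were seen, were not higher in both siSAM68 libraries. ATF4, the transcription factor downstream of PERK, was at 737 and 789.6 RPM in siSAM68 and 820.1 and 1494 RPM in siXRN2. ASNS, asparagine synthetase and a target of ATF4, was at 216 and 269.6 RPM in siSAM68 and 264 and 695.5 RPM in siXRN2. SDF2L1, a chaperone cofactor, was at 130.2 and 109 RPM in siSAM68 and 127 and 249.6 RPM in siXRN2. In all 3 genes siXRN2 replicate 2 was the highest of the 6 libraries, while siXRN2 replicate 1 was near the siSAM68 or siCTRL level. TRIB3, another ATF4 target, did not separate the groups, at 387 and 415 RPM against 388 and 409 RPM.

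Over the 15 stress genes the siCTRL mean lay between the knockdowns in 10, below both in 4 and above both in 1. Without single libraries, 6 to 10 members were higher in siSAM68 at an unadjusted limma p of 0.05, and the list median ranged from 0.5 to 0.76. With deposited RPM that was not rescaled, no member passed in either direction, against 4 and 2 of all genes, and the list median was 0.84.

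Promoter sequences were searched for the endoplasmic reticulum stress response element, the site that ATF6 binds together with NF-Y, because it marks the promoters of several chaperone genes. The motif was CCAAT and CCACG with 9 bases between them, on both strands, in windows from 250 bases before to 50 bases after each start site (RefSeq, GRCh38.p14), and all 15 stress genes had a promoter in the table. It was found in 3 of them, HSP90B1, PDIA6 and XBP1, and in 25 of 27305 genes in all (0.0916%). By promoter, of which a gene can have several, it was found in 27 of 35116 (0.0769%). The matches follow, 5′ to 3′ on the strand of the motif, with the fixed motif letters in capitals. The first HSP90B1 match is at chr12:103930216-103930234 and the second, on the strand opposite to the gene, at chr12:103930321-103930339, while the gene is on the plus strand. The PDIA6 match is at chr2:10812853-10812871 and the XBP1 match at chr22:28800603-28800621, both on the minus strand like the genes.
HSP90B1, first: CCAATcggaaggagCCACG
HSP90B1, second: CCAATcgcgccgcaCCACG
PDIA6: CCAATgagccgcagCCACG
XBP1: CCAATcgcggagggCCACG
A match describes these letters only, and the lack of one, as in EDEM1, says only that they are not in this window.

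**Figure D2:**
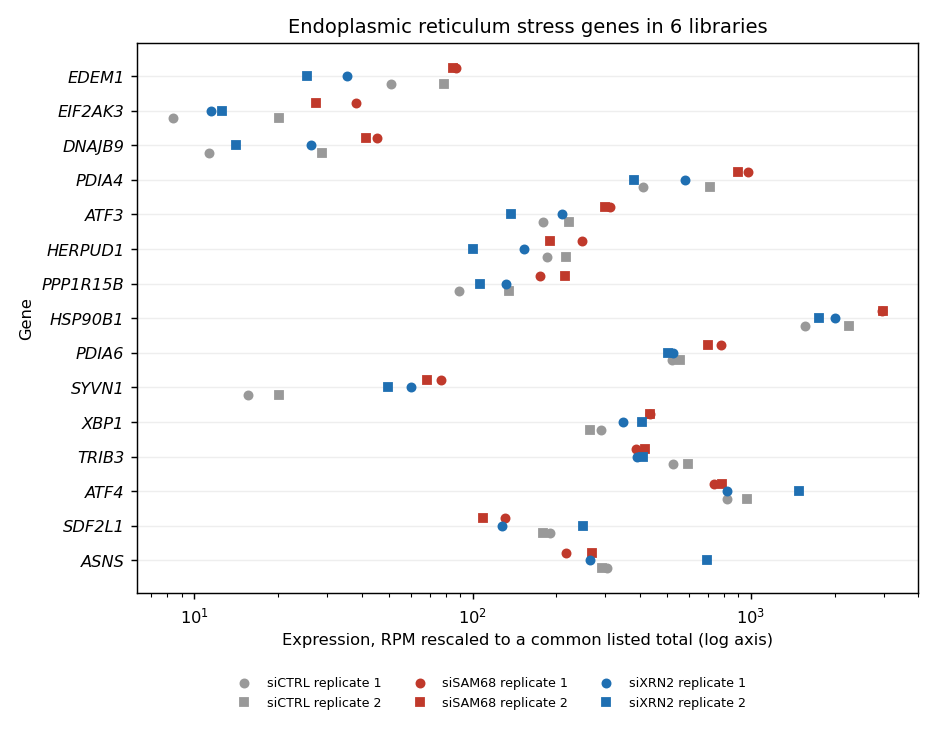
Expression of the 15 tested endoplasmic reticulum stress genes in RPM rescaled to a common listed total on a log axis, ordered by log2 difference, with 1 point per library. The siSAM68 points lie to the right of both siXRN2 points in 11 genes, and for ATF4, SDF2L1 and ASNS siXRN2 replicate 2 is the highest of the 6 libraries.

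Differences moved with the GC content of the transcript. In the 480 genes of lowest GC content (31.8% to 42.8%) the median log2 difference was 0.36, with 150 genes higher in siSAM68 and 13 higher in siXRN2 at an unadjusted limma p of 0.05. It was 0.15 and -0.05 in the 480 genes of each of the next GC ranges. In the 480 genes of highest GC content (57.4% to 73.7%) the median was -0.27, with 13 genes higher in siSAM68 and 123 higher in siXRN2. Between replicates the medians of these GC groups ran from -0.03 to 0.03 in siSAM68 and from -0.15 to 0.07 in siXRN2. The part of GC content in the results was not tested beyond removing its trend from each library, which left 1 gene, KHDRBS1, past the adjusted threshold and 156 and 191 genes at an unadjusted p of 0.05.

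The stress list had a median GC content of 47.0%, against 50.0% over all genes. With the trend removed, 10 of its 15 members were higher in siSAM68 at an unadjusted limma p of 0.05 and 1 was higher in siXRN2, and the list median was 0.47. FAS, at 39.1% GC, kept a log2 difference of 1.4 with a limma adjusted p of 0.134.

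**Figure D3:**
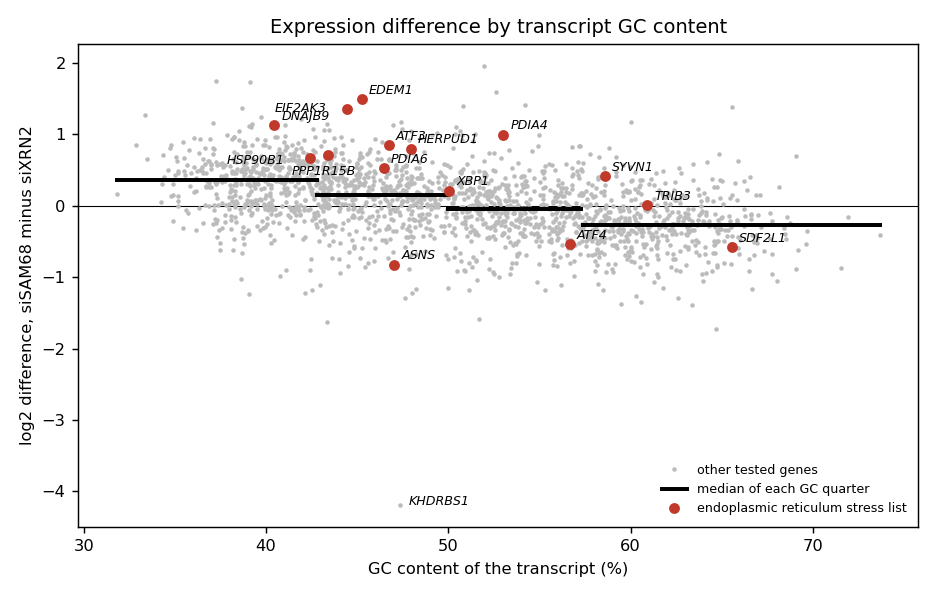
Log2 difference of expression (siSAM68 minus siXRN2) against the GC content of the transcript for each tested gene, with the median of each of 4 GC groups as a line and the endoplasmic reticulum stress list marked. The medians step from 0.36 in the lowest to -0.27 in the highest group, and the stress list has a median of 0.56 above the lines.

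Cell cycle genes were compared because the study set polyadenylation beside cell cycle progression. None of 12 G2/M and mitosis genes passed the adjusted threshold. At an unadjusted limma p of 0.05, 4 were higher in siSAM68 and 1 was higher in siXRN2, against 14.6% and 11.5% of all genes, and the median log2 difference was 0.32. HMMR, a spindle protein, was at 89.0 and 99.3 RPM in siSAM68, 46.5 and 61.6 RPM in siXRN2 and 35.5 and 44.9 RPM in siCTRL. CCNB1, cyclin B1, was at 495 and 573 RPM in siSAM68, 405 and 379 RPM in siXRN2 and 254 and 296 RPM in siCTRL (log2 0.44, limma adjusted p = 0.1499). The siCTRL libraries were lowest in both genes. KIF22, a chromosome-arm kinesin, was at 319 and 309 RPM in siSAM68 against 470.4 and 436 RPM in siXRN2 (log2 -0.53), with siCTRL near siXRN2 at 480.2 and 461 RPM. With the GC trend removed, no member passed an unadjusted p of 0.05, and the median was 0.21.

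Genes of earlier cell cycle phases gave few differences. Of 7 G1/S genes, E2F1, a transcription factor of S phase entry, was at 51.4 and 56.3 RPM in siSAM68 and 85.7 and 119.7 RPM in siXRN2 (log2 -0.90, limma adjusted p = 0.078), and E2F3 differed by 0.54. CDK2 was at 132 and 155 RPM in siSAM68 and 117 and 153 RPM in siXRN2, so the groups overlapped. Of 21 DNA replication genes, 3 were higher in siXRN2 at an unadjusted limma p of 0.05 and none in siSAM68, against 11.5% and 14.6% of all genes. They included POLD2, a DNA polymerase delta subunit (log2 -0.92), and MCM5, a subunit of the replicative helicase (log2 -0.59), and with the GC trend removed 1 gene passed that threshold. MCM6, of the same helicase, was at 68.4 and 89.4 RPM in siSAM68, 54.6 and 85.8 RPM in siXRN2 and 26.8 and 37.2 RPM in siCTRL. For MCM6 both knockdown groups overlapped each other and were above siCTRL. BIRC5, the apoptosis inhibitor survivin, was at 187 and 250.2 RPM in siSAM68 and 151 and 234 RPM in siXRN2, also overlapping.

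Of 9 CDK inhibitors and p53 targets, 4 were higher in siSAM68 at an unadjusted limma p of 0.05 and none in siXRN2 (14.6% and 11.5% of all genes), with a median log2 difference of 0.34. CCNG2, an unconventional cyclin that restrains the cycle, was at 75.6 and 91.0 RPM in siSAM68, 53.9 and 45.3 RPM in siXRN2 and 72.3 and 99.2 RPM in siCTRL, so siXRN2 was the group that stood apart. CDKN1B, the CDK inhibitor p27, was at 101 and 110.4 RPM in siSAM68, 78.3 and 73.3 RPM in siXRN2 and 45.3 and 64.3 RPM in siCTRL (log2 0.48, limma adjusted p = 0.161). FAS, described above, had the highest difference of the list. With the GC trend removed, 1 member passed in this direction, and the median was 0.31.

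Androgen-responsive genes, which LNCaP cells are known for, gave counts near or below the share of all genes. Of 28 tested, 1 was higher in siSAM68 and 4 were higher in siXRN2 at an unadjusted limma p of 0.05 (14.6% and 11.5% of all genes), and the median log2 difference was -0.04. ZBTB16, an androgen-induced zinc finger repressor, was at 142 and 109.5 RPM in siSAM68, 83.4 and 39.9 RPM in siXRN2 and 92.2 and 168 RPM in siCTRL (log2 1.10). NDRG1, a stress-responsive gene, was at 48.8 and 35.3 RPM in siSAM68 and 84.2 and 74.1 RPM in siXRN2 (log2 -0.91). The siXRN2 libraries of NDRG1 were above both siCTRL libraries, at 58.2 and 41.8 RPM. KLK2, a kallikrein protease, was at 121 and 67.2 RPM in siSAM68 and 188 and 134 RPM in siXRN2. KLK3, prostate-specific antigen, was at 987 and 491 RPM against 1216 and 783 RPM, and the groups overlapped. Of the luminal marker list, FOXA1, a pioneer transcription factor, was at 338 and 355 RPM in siSAM68, 239 and 192 RPM in siXRN2 and 153 and 249 RPM in siCTRL (log2 0.69, limma adjusted p = 0.0789). Without siSAM68 replicate 2 no androgen-responsive gene was higher in siXRN2 at an unadjusted p of 0.05, and without siXRN2 replicate 2 there were 9.

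Among 15 splicing regulators and RNA-binding proteins, KHDRBS1 was the only call. At an unadjusted limma p of 0.05, 3 were higher in siSAM68 and 1, KHDRBS1, in siXRN2. The shares of all genes were 14.6% and 11.5%, which also stand beside the counts of the other lists in this paragraph. Of 7 listed genes of cleavage, polyadenylation and termination, RBBP6 and CPSF1 passed an unadjusted p of 0.05. RBBP6, a cofactor of the cleavage machinery, was at 132 and 130.2 RPM in siSAM68, 93.8 and 84.1 RPM in siXRN2 and 66.6 and 82.1 RPM in siCTRL (log2 0.56). CPSF1, the large subunit of the cleavage and polyadenylation specificity factor, was at 17.9 and 15.0 RPM in siSAM68 and 23.6 and 33.5 RPM in siXRN2 (log2 -0.75). CSTF3, which encodes a cleavage stimulation factor protein, was at 131 and 145 RPM against 106 and 111 RPM, with siCTRL higher than both at 157 and 198 RPM. With the GC trend removed, neither RBBP6 nor CPSF1 passed an unadjusted p of 0.05. Of 25 spliceosome genes and RNA helicases, 2 were higher in each group at an unadjusted p of 0.05, DDX1 (log2 0.85) and DDX39A (log2 -0.68) among them.

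The cytosolic ribosome list (23 genes) had a median log2 difference of -0.04, with RPL26L1 at 0.69 and RPL28 at -0.46. At an unadjusted limma p of 0.05, 4 of 21 genes on the translation factor list were higher in siSAM68 and none in siXRN2. The shares of all genes were 14.6% and 11.5%. EIF2AK3, the kinase PERK described above, is counted among the 4 though it is not a translation factor. After it came the poly(A)-binding protein gene PABPC4, at 179 and 176 RPM in siSAM68 against 88.2 and 128 RPM in siXRN2. Of 31 respiratory chain genes, 5 were higher in siSAM68 and 6 in siXRN2, with complex I subunits on both sides: NDUFB3 (log2 0.73) and NDUFS7 (log2 -0.74). CYC1, cytochrome c1, was at 955 and 919 RPM in siSAM68, 639 and 703 RPM in siXRN2 and 241 and 297 RPM in siCTRL (log2 0.48, limma adjusted p = 0.119). Of 39 genes of the mitochondrial ribosome, carriers and import, 4 were higher in each group, and VDAC3, a channel of the outer membrane, overlapped at 92.6 and 120 RPM against 76.1 and 152 RPM. MRPS18C, of the mitochondrial ribosome, differed by log2 0.56.

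Redox genes split within a family. PRDX3, the mitochondrial peroxiredoxin, was at 169 and 174 RPM in siSAM68, 104.5 and 111 RPM in siXRN2 and 76.4 and 73.6 RPM in siCTRL (log2 0.67). PRDX2, its cytosolic relative, was at 483 and 439.9 RPM in siSAM68, 703 and 769 RPM in siXRN2 and 844 and 725 RPM in siCTRL (log2 -0.67). Each peroxiredoxin was thus farther from siCTRL in siSAM68 than in siXRN2. PARK7, the oxidative stress protein DJ-1, was at 2599 and 2546 RPM against 1913 and 2087 RPM, above siCTRL at 742 and 952 RPM (log2 0.36, limma adjusted p = 0.206). Of 13 redox genes, 3 were higher in siSAM68 and 2 in siXRN2 at an unadjusted limma p of 0.05. The shares of all genes were 14.6% and 11.5%. PRDX3 had a GC content of 40.7% and PRDX2 of 58.6%.

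Of 47 vesicle and membrane trafficking genes, 12 were higher in siXRN2 and 5 in siSAM68 at an unadjusted limma p of 0.05, against 11.5% and 14.6% of all genes. With the GC trend removed the counts were 13 and 3. The median log2 difference was 0.02. Beside VPS18, SNX31, a sorting nexin, was at 12.3 and 13.7 RPM in siSAM68 and 27.3 and 31.2 RPM in siXRN2 (log2 -1.11), below siCTRL at 82.1 and 31.1 RPM in siSAM68. RAB3GAP2, described above, lay on the other side. Without siSAM68 replicate 2 there were 5 members higher in siXRN2 and 4 higher in siSAM68.

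Of 31 proteasome and ubiquitin genes, 7 were higher in siSAM68 and 1 in siXRN2 at an unadjusted limma p of 0.05 (14.6% and 11.5% of all genes), with UBE2W, a ubiquitin-conjugating enzyme, at log2 0.89 and PSMA3, a proteasome core subunit, at 0.52. After removal of the GC trend these counts were 2 and 3, against 156 and 191 of 1920 genes. Of 20 chromatin genes, 4 and 3 passed, with KDM6A, a histone demethylase, at log2 0.70 and SMARCD2, a chromatin remodelling subunit, at -0.82. Of 27 membrane transporters, SLC30A5, a zinc transporter of the secretory pathway, was at 281 and 300.1 RPM against 144 and 162 RPM (log2 0.92), and SLC37A4, the glucose-6-phosphate transporter, differed by -0.88. Of 38 zinc finger transcription factors, 5 and 6 passed, with ZNF703 at -0.81. Of 11 sterol and fatty acid genes, ELOVL5, a fatty acid elongase, differed by 0.79 and CYP51A1, a sterol demethylase, by 0.73. The median of that list was -0.01, and 4 of its 11 differences were positive. In the interferon list of 5, IFI6 was higher in siXRN2 while IFI44 was higher in siSAM68 (log2 1.12), at 52.9 and 48.0 RPM against 38.4 and 13.3 RPM. The siCTRL libraries of IFI44 were at 51.0 and 52.7 RPM. IFI44 was the only member with a positive difference, and the list median was -0.34. Of 7 noncoding RNAs, FAM13A-AS1 differed by -0.98 and LINC00116 by 0.92, and antisense reads could not be separated from those of the partner gene by the sources used here.

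**Figure D4:**
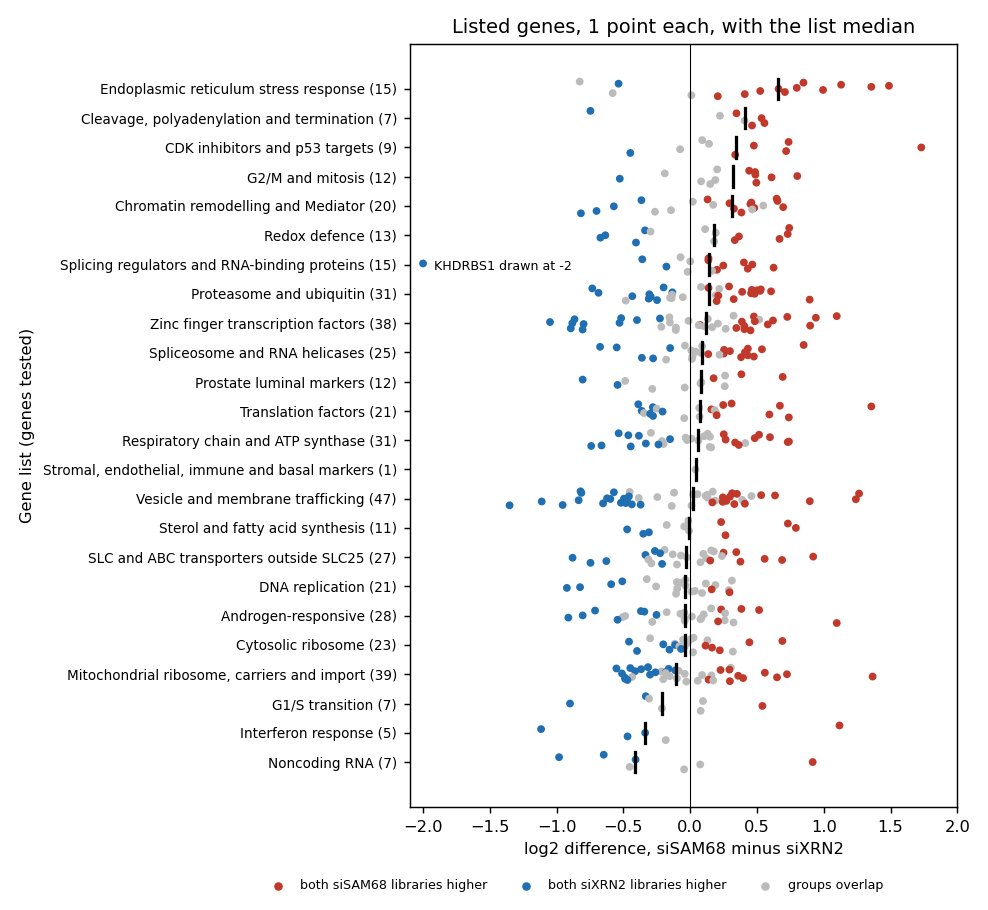
Log2 difference of expression (siSAM68 minus siXRN2) for each tested gene of 24 lists, with 1 point per gene, colours for groups that do not overlap and a bar at the list median. The endoplasmic reticulum stress list has the highest median, 0.66, and noncoding RNA the lowest, -0.41, on 7 genes. KHDRBS1, at -4.19, is drawn at the left edge.

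Polyadenylation site usage, which is each site's percent of the reads of its gene, was tested for 4737 sites. No site passed a limma adjusted p of 0.05 (0.0%). At an unadjusted limma p of 0.05 there were 736 sites (15.5%), 371 higher in siSAM68 (7.83%) and 365 higher in siXRN2 (7.71%). Groups did not overlap in 2519 sites (53.2%). Without siXRN2 replicate 1, which leaves siXRN2 with 1 library assumed to vary like the siSAM68 libraries, 143 sites passed the adjusted threshold, and leaving out any of the other 3 libraries gave 0. Depth at a site is known only for genes in both tables. There, in 451 genes with at least 20 reads in each knockdown library, 413 of 768 sites did not overlap (53.8%), and 87 of these differed by at least 10 percentage points. The median absolute difference over those 768 sites was 3.72 points between the groups, 2.77 points between the siSAM68 libraries and 3.47 points between the siXRN2 libraries.

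Site types are codes of the deposited table, read here as first (F), middle (M), last (L) and single (S) sites of the 3' end and as intronic or exonic sites, since no source used here defines them. Both siSAM68 libraries were higher at 22.1% of 944 first sites and both siXRN2 libraries higher at 28.5%. At 1226 last sites the order was the other way, 28.7% against 25.0%. The median difference was -0.58 points at first sites and 0.61 points at last sites, and leaving out single libraries gave -0.73 to -0.13 points and 0.22 to 0.95 points. The median difference between the siXRN2 replicates was 0.55 points at first sites and 0.0 at last sites. At an unadjusted limma p of 0.05 the counts were 48 higher in siSAM68 and 57 higher in siXRN2 at first sites, and 91 and 89 at last sites. Over all sites the shares at that threshold were 7.83% and 7.71%, and the shares that did not overlap were 27.1% and 26.1%. By the deposited code for the polyadenylation signal, 161 sites coded Arich were higher in both siSAM68 libraries at 19.3% and in both siXRN2 libraries at 32.3%. For AATAAA, the canonical signal, the shares were 27.9% and 26.1%, and for ATTAAA 26.4% each way.

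The following sites are the largest non-overlapping differences in genes with at least 20 reads in every knockdown library, with 1 site per gene and direction, and their limma adjusted p-values lay between 0.225 and 0.412. They are given as values only, at hg19 positions of the deposited table. GATAD2A, a subunit of the NuRD chromatin complex, used its first site (chromosome 19, position 19617788) for 49.1% and 50.3% of reads in siSAM68 and 27.0% and 27.6% in siXRN2, with siCTRL at 24.6% and 19.5%. Its last site (position 19619736) held 36.5% and 43.3% in siSAM68 against 57.0% and 65.7% in siXRN2. GATAD2A had 167 to 641 reads, and at its first site both knockdowns were above both siCTRL libraries, siSAM68 by more.

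PTS, an enzyme of tetrahydrobiopterin synthesis, used a middle site (chromosome 11, position 112104533) for 79.4% and 67.6% of reads in siSAM68, 56.6% and 49.1% in siXRN2 and 45.8% and 46.9% in siCTRL. In PTPN9, a tyrosine phosphatase gene, the last site (chromosome 15, position 75759464) took 44.2% and 41.7% against 15.5% and 21.7%, while siCTRL was at 22.7% and 23.6%. PIK3IP1, an inhibitor of phosphoinositide 3-kinase, shifted between its middle sites. The upstream one (chromosome 22, position 31678606) held 42.5% and 52.8% in siSAM68 against 22.2% and 25.4% in siXRN2, and the downstream one (position 31677669) 55.0% and 44.4% against 75.6% and 71.6%. In PTPN9 and PTS the siXRN2 libraries were nearer to siCTRL than the siSAM68 libraries were.

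UBE2J2, a ubiquitin-conjugating enzyme of endoplasmic reticulum degradation, showed the opposite placement. Its last site (chromosome 1, position 1189292) held 50.6% and 44.2% in siSAM68, 38.0% and 20.9% in siXRN2 and 51.0% and 49.5% in siCTRL. BTBD1 used a middle site for 36.4% and 10.7% in siSAM68 against 2.86% and 5.85% in siXRN2, on 22 to 171 reads. VIPR1, a receptor for vasoactive intestinal peptide, used an intronic site (chromosome 3, position 42574232) for 34.3% and 27.2% of reads in siSAM68 and 5.97% and 8.72% in siXRN2, with siCTRL at 21.9% and 7.69%.

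Sites used more in siXRN2 were led by PPP1R14C, a phosphatase inhibitor, whose middle site (chromosome 6, position 150570467) held 26.7% and 33.3% in siSAM68 against 72.0% and 58.8% in siXRN2, on 25 to 51 reads. FAM105A used a middle site for 5.41% and 0% against 15.2% and 37.6%. LPHN1, an adhesion receptor, used its last site for 56.2% and 38.5% against 72.7% and 68.5%. MYO1E, a class I myosin, and AFF3, a transcription elongation factor, used their last sites by 21.7 and 19.1 points less in siSAM68, on counts that begin at 23 and 45 reads. In each of these genes the replicates of a group differed by more than 10 points, and in MYO1E those of both groups did. The siXRN2 libraries of AFF3 were at 86.7% and 65.1%.

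**Figure D5:**
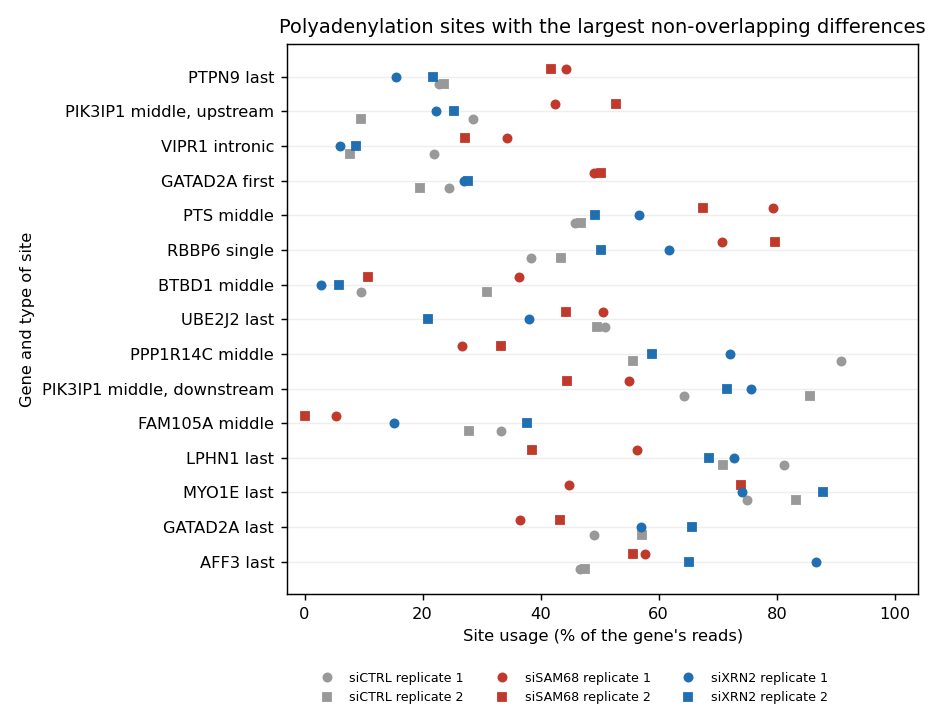
Usage in percent of the gene's reads at 15 sites with the largest non-overlapping differences among genes of known depth, with 1 point per library of siSAM68, siXRN2 and siCTRL. The first site of GATAD2A shows the tightest groups, at 49.1% and 50.3% in siSAM68 and 27.0% and 27.6% in siXRN2.

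RBBP6, CSTF3 and PAPOLA, genes of the cleavage machinery chosen with earlier results of these data known, are given as values only. Sites of other genes of that machinery are not given here. Over all tested sites, groups did not overlap at 53.2%. Reads behind the percentages of PAPOLA are unknown. RBBP6 used its single 3' site (chromosome 16, position 24584184) for 70.7% and 79.7% of reads in siSAM68, 61.7% and 50.3% in siXRN2 and 38.3% and 43.4% in siCTRL, so both knockdowns were above siCTRL and siSAM68 farther above. CSTF3 used an intronic site (chromosome 11, position 33162977) for 74.9% and 81.5% in siSAM68, 88.5% and 87.1% in siXRN2 and 96.4% and 93.3% in siCTRL. Its single 3' site held the rest, 25.1% and 18.5% in siSAM68 and 11.5% and 12.9% in siXRN2. In PAPOLA, the gene of poly(A) polymerase alpha, the last site (chromosome 14, position 97033453) held 23.3% and 30.3% in siSAM68, 15.6% and 14.8% in siXRN2 and 8.18% and 8.11% in siCTRL. In these 3 genes the single or last 3' site was used least in siCTRL, more in siXRN2 and most in siSAM68. Limma adjusted p-values missed the threshold, with unadjusted p of 0.033 for RBBP6, 0.0702 for the single site of CSTF3 and 0.0523 for PAPOLA. An intronic site of PAPOLA (position 96999033) did not mirror its last site. It held 44.5% and 45.7% in siSAM68, 48.7% and 51.5% in siXRN2 and 45.5% and 42.5% in siCTRL.

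At the most used sites of CCNB1 and CDKN1B the knockdowns overlapped, and at that of BIRC5 they did not. CCNB1 used its first site (chromosome 5, position 68473524) for 77.0% and 79.3% in siSAM68 and 80.3% and 75.8% in siXRN2, while siCTRL was at 60.9% and 68.1%. CDKN1B used its main middle site (chromosome 12, position 12875303) for 93.4% and 88.0% against 89.6% and 91.4%. Its first site (position 12874753) did not overlap, at 3.55% and 4.78% in siSAM68 and 6.67% and 5.62% in siXRN2. BIRC5 used the most upstream of its listed sites (chromosome 17, position 76220780) for 77.5% and 78.6% in siSAM68, 70.5% and 66.7% in siXRN2 and 51.9% and 54.5% in siCTRL (limma unadjusted p = 0.0395). KLK3 used its last site for 87.5% and 90.0% in siSAM68 and 91.3% and 91.6% in siXRN2.

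XRN2 itself is represented by 2 sites on chromosome 20. The first (position 21370087) held 25.0% and 7.50% in siSAM68, 7.69% and 0% in siXRN2 and 9.09% and 24.0% in siCTRL. The last (position 21370463) held 10.7% and 20.0% in siSAM68 and was listed at 0 in both siXRN2 and both siCTRL libraries. The reads behind these percentages are unknown, and usage is no measure of the level of XRN2.

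To ask whether 3' ends were longer in one knockdown, the most used pair of 3' sites was formed in 1107 genes and tested as the log2 ratio of distal to proximal usage. No pair passed a limma adjusted p of 0.05 (0.0%), and 185 passed an unadjusted p of 0.05 (16.7%), 94 more distal in siSAM68 (8.49%) and 91 more distal in siXRN2 (8.22%). Groups did not overlap in 323 pairs more distal in siSAM68 (29.2%) and 278 more distal in siXRN2 (25.1%), and the median log2 difference was 0.06. By distance between the sites, the medians differed in sign, and that difference was not tested. In the third of pairs with the closest sites, 25 to 308 bases apart, the difference was positive in 217 of 369 pairs (58.8%). Groups did not overlap in 111 of these 369 pairs more distal in siSAM68 and 72 more distal in siXRN2. The median was 0.12, and 0.085 to 0.152 without single libraries. In the third with the most distant sites, 1278 to 13644 bases apart, the difference was positive in 178 of 369 pairs (48.2%). The counts of pairs that did not overlap were 99 and 110. The median was -0.06, which was 0.0 without siSAM68 replicate 2 and -0.115 without siXRN2 replicate 1. Across 238 genes with both values, the pair difference and the expression difference correlated with Spearman's rho of 0.12, over genes that share libraries.

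Single pairs in genes of known depth went both ways. SMC2, a condensin subunit, used its proximal site for 15.5% and 16.1% in siSAM68 and 7.46% and 9.92% in siXRN2, and its distal site for 0% and 0.85% against 4.48% and 6.61%. CYTH3, an ARF exchange factor, used the proximal site for 4.11% and 6.67% against 0% and 0.59%. PDLIM5, a scaffold protein of the cytoskeleton, used its proximal site for 0.72% and 0.63% in siSAM68 and 2.82% and 9.05% in siXRN2, and its distal site for 78.1% and 82.1% against 77.5% and 67.2%. TRIM68, a ubiquitin ligase, used its distal site for 98.1% and 100.0% against 88.9% and 95.4%. The groups of these 4 pairs did not overlap, at limma adjusted p-values from 0.168 to 0.27.

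Intronic usage, the summed percent of a gene's intronic sites, was tested in 755 genes, with no trend in limma, unlike genes and sites. With a trend no gene passed the adjusted threshold. Without one, a limma adjusted p of 0.05 was passed by 8 genes (1.06%), 4 higher in siSAM68 (0.53%) and 4 higher in siXRN2 (0.53%). Higher in siSAM68 were CD274, which encodes the immune checkpoint ligand PD-L1, NUBPL, a complex I assembly factor, BCAS3 and the protocadherin gene PCDH11Y. CD274 was at 50.0% and 50.0% in siSAM68 and listed at 0 in the other 4 libraries, and NUBPL was at 33.3% and 42.9% against 0 in both siXRN2 libraries. Higher in siXRN2 were CD302, PPP2R2C, a phosphatase regulatory subunit, PBLD and MTM1, a phosphoinositide phosphatase. CD302 was at 50.0% and 33.3% in siXRN2 and PPP2R2C at 25.0% and 36.4%, and both were listed at 0 in siSAM68. All 8 were listed at 0 in both libraries of one knockdown, and gene reads are known for 1 of them. None of the 8 passed without any single library, nor with a pseudocount of 5.

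Genes with at least 20 reads in each knockdown library did not pass the adjusted threshold, other than PCDH11Y, and some are given as values. CBR1, carbonyl reductase, used its intronic sites for 22.9% and 23.5% in siSAM68, 4.08% and 7.41% in siXRN2 and 7.50% and 5.08% in siCTRL, on 48 to 108 reads. MTF1, the metal-responsive transcription factor, was at 16.0% and 15.6% against 0% and 1.92%. CSMD1 was at 12.1% and 11.5% against 0% and 0.81%. PPP1R7, a phosphatase regulator, was at 40.3% and 49.6% in siSAM68 and 34.9% and 32.1% in siXRN2 on 211 to 650 reads, and both were above siCTRL at 16.9% and 29.2%. PUS1, a pseudouridine synthase, was at 13.5% and 13.6% in siSAM68 and 23.8% and 28.3% in siXRN2, below siCTRL at 54.3% and 28.6%. Groups did not overlap in 189 genes higher in siSAM68 (25.0%) and 166 higher in siXRN2 (22.0%), and 62 (8.21%) and 53 (7.02%) passed an unadjusted limma p of 0.05 in these directions.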

How the data were processed

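Per the submitters' processing notes, reads were trimmed with cutadapt and aligned with Bowtie2 to hg19, with annotation and filters not stated. The authors' deposited RPM values have 1 decimal and are scaled to both libraries of a group together (0.238 RPM a read in siSAM68, 0.157 in siXRN2, per the values), so each library was rescaled to a listed total of 346701.2 RPM. Within the rounding of 0.05 RPM, 100.0% of values were whole reads. That rounding is large beside the steps of both knockdown groups, so the recovery is a weak check there, and the read counts, read minimums and count tests rest on it. On these reads edgeR 4.0.16 called 45 genes and DESeq2 1.42.0 58. Site usage is a percent of a gene's reads, per the file headers. The authors' deposited score has no stated definition and served only to count listed items.

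Tests used limma 3.58.1 (R 4.3.3) on the 4 knockdown libraries with Benjamini-Hochberg adjustment: log2(RPM + 1) for genes averaging 1 RPM or more, log2(percent + 1) for sites with a mean of at least 1%, log2((distal + 1)/(proximal + 1)) for pairs and log2(summed percent + 1) for intronic usage, the latter pair of fits without limma's trend. Positive is higher in siSAM68. Fold changes on these scales understate low genes. Named genes are the 12 largest non-overlapping differences each way at 20 RPM or more (LOC identifiers skipped), up to 2 genes of lowest p per list and a fixed set. No site passed, so sites, pairs and intronic examples were chosen by size in genes with at least 20 reads, after values were seen. Members and lists were chosen with earlier results of these data known. GC content came from GENCODE v29 transcripts (99.2% of genes matched). A permutation test of 2 against 2 libraries cannot go below p = 0.333. Scripts were tested on simulated data. Alternatives covered scaling, pseudocounts, filters, other tools, single libraries and the replicate number. An item chosen by these rules is not reported here.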

Additional observations from a re-analysis of the deposited data

How the results depend on the processing

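Genes called numbered 36 with upper-quartile scaling, 9 with median-of-ratios scaling, 1 with deposited RPM, 6 with a pseudocount of 5, 1 with no filter on low values, 6 at a mean of at least 10 RPM, 45 with edgeR and 58 with DESeq2. Leaving out single libraries gave 1 to 443. With the GC trend of each library removed, an alternative added after seeing the data, 1 was called. The cause of these changes was not tested. The replicate numbers of the labels are shared by number only, with a correlation of same-numbered deviations of 0.183 between siSAM68 and siXRN2 for expression and 0 for site usage. With the replicate block limma called 381 genes, edgeR with the block 379 and all 6 libraries with the block 1, the latter 2 added after seeing the data. Sites called were 34 with no trend and 0 to 143 without single libraries, and 0 under the other alternatives. Pairs called were 2 with a pseudocount of 5 and 4 with all 6 libraries. Genes with changed intronic usage were 16 with a pseudocount of 0.5, 15 with all 6 libraries, 1 with untransformed percent, and 0 with a pseudocount of 5, with a trend, with the replicate block, with all 6 libraries and the block, or without any single library (0 to 0). Sites and pairs called were 0 with the block. KHDRBS1 passed under every alternative run. Signs turned for values that lay between -0.49 (KLK3) and 0.20 (BIRC5) in the main fit. The sign of KLK3 turned without siSAM68 replicate 2. FN1 gave -0.01 with median-of-ratios scaling and DESeq2, -0.00051 with edgeR, -0.0038 with edgeR and the block, and -0.13 to 0.21 without single libraries. TRIB3 gave -0.04 with median-of-ratios scaling and DESeq2, -0.03 with edgeR with and without the block, and -0.04 to 0.06 without single libraries. VDAC3 gave 0.14 with deposited RPM and -0.52 to 0.46 without single libraries, and MCM6 -0.06 with the GC trend removed and -0.13 to 0.51 without single libraries. Without single libraries CDK2 gave -0.1 to 0.29, BIRC5 -0.11 to 0.51, KLK3 -0.99 to 0.02, the first site of CCNB1 -0.04 to 0.04 and the middle site of CDKN1B -0.04 to 0.04. Reads behind usage are unknown for genes outside the expression table, which limits what their percentages can show.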
